A study of Camellia sinensis with 6 samples.

Results

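The flavonoid B-ring hydroxylases are a group of 21 unigenes (assembled transcripts) among the 127252 with values in a leaf transcriptome of the tea cultivar 'Huangjinya'. A unigene was taken into the group if its KEGG ortholog was flavonoid 3'-hydroxylase (F3'H, 8 unigenes) or flavonoid 3',5'-hydroxylase (F3'5'H, 11 unigenes), or if its best protein hit carried a name beginning with flavonoid 3 (2 further unigenes). Of 32 unigenes found in this way, 11 named as glucosyltransferases or glycosyltransferases were dropped. 'Huangjinya' (Camellia sinensis) has yellow leaves in sunlight that turn green in weak light. The third leaf of each shoot, counted from its tip, was sampled from 2-year-old plants in the field. Plants of the shaded group (Y+S, libraries Y+S1 to Y+S3) spent 10 days under netting, which lowered the light by roughly 45%. Those of the control group (Y, libraries Y1 to Y3) were left uncovered. The libraries of a group came from different plants, all of 1 cultivar, so that the comparison covers 1 cultivar at 1 time point.

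F3'H and F3'5'H are membrane-bound cytochrome P450 enzymes that add hydroxyl groups to the B-ring of flavonoids. F3'H adds a hydroxyl at the 3' position and F3'5'H at both the 3' and 5' positions. In tea, the products of the first lead to dihydroxylated catechins such as epicatechin and to quercetin, and those of the second to trihydroxylated catechins such as epigallocatechin and its gallate and to myricetin. Both enzymes act on the same flavanone and dihydroflavonol substrates and receive their electrons from NADPH-cytochrome P450 reductase, in some plants also from cytochrome b5.

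The unigene sequences were not used here, but the study designed qRT-PCR primers for 1 member of each kind, Unigene28864 for F3'H and Unigene8507 for F3'5'H. Their primers are shown because they name the transcript piece that stands for each enzyme in the study, in lower case throughout, from 5' to 3'.
Unigene28864 forward: tcgaatggcatctgacagttg
Unigene28864 reverse: gcctgcaccaaatggtatgac
Unigene8507 forward: gagcacacgacgagatggat
Unigene8507 reverse: gtctttgcattctttccactc
The Unigene28864 primers have 21 bases each, with 47.6% G and C in the forward and 52.4% in the reverse primer. Those of Unigene8507 have 20 and 21 bases, with 55.0% and 42.9% G and C.

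The annotation of the 21 members is given before their values. Only 3 had their best protein hit in tea itself. Unigene28864 (989 nt) and Unigene40240 (864 nt) both matched the same tea F3'H protein and the same Camellia nitidissima F3'H mRNA, and Unigene8507 (4961 nt) matched tea F3'5'H. With Swiss-Prot, 11 members had a best hit in CYP75, the P450 family that holds F3'H (CYP75B) and F3'5'H (CYP75A). The other best hits were CYP76 for 5 members, and CYP71, CYP81, CYP98 and CYP719 for 1 member each. Best hits of the CYP76 kind included geraniol 8-hydroxylase of monoterpenoid synthesis, and CYP98 holds the p-coumaroyl ester 3'-hydroxylases of lignin and chlorogenic acid synthesis. The remaining member, Unigene1186, was named flavonoid 3-0-galactosyltransferase, an enzyme that attaches galactose to flavonols or anthocyanidins, and is no hydroxylase. In all, 12 of the 21 had a protein hit that named a flavonoid 3'- or 3',5'-hydroxylase or monooxygenase, and 14 carried the Gene Ontology term for heme binding. The label F3'H or F3'5'H is therefore used below for the KEGG class, and the protein hit is given where it names something else. The lengths were uneven, with 9 members under 500 nt, and Unigene8507 was longer than any other member, the next being CL12705.Contig3 with 2182 nt.

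The libraries held between 10022397 and 18742989 counted fragments, and the members took up 0.0812% to 0.178% of these. A unigene with 0 counts may still have been present at a level with an expected count of up to 3. This equals 0.160 to 0.299 CPM (counts scaled to a library of 1000000) here. The study left out Y1 and Y+S3 from its search for differential expression because they stood apart from the other libraries. Both of these libraries had the smallest share of counts in unigenes of 3000 nt or more in their group, 9.26%, 9.41% and 4.77% in Y+S1 to Y+S3 and 5.54%, 6.77% and 7.60% in Y1 to Y3. Results are therefore given for the 4 libraries the study used (Y+S1, Y+S2, Y2 and Y3) and for all 6. The leaf markers were high in every library, with a summed FPKM (fragments per kb of unigene, scaled to a library of 1000000 fragments) of 23492 to 39013 in Y+S and 38051 to 42025 in Y for the 9 unigenes of the small Rubisco subunit, of which 1 was at 0 throughout. The light-harvesting proteins varied widely and overlapped between the groups, with 2288 to 4803 FPKM in Y+S and 3589 to 9446 FPKM in Y for 10 LHCB1 unigenes, and 395 to 3216 FPKM in Y+S and 459 to 1024 FPKM in Y for 2 LHCB2 unigenes. Markers of dividing cells were lower in some shaded libraries, with 940.5 to 2399 FPKM in Y+S and 1817 to 7745 FPKM in Y for 11 histone H4 unigenes, and 48.1 to 122 against 114 to 127 FPKM for 43 cyclin B unigenes. The 24 unigenes named for pollen or anthers summed to 1317 to 2378 FPKM in Y+S and 1462 to 1773 FPKM in Y. The part of these cell type markers in the results was not tested. In such bulk samples, fewer cells of a type and less RNA per cell cannot be told apart.

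Shading was compared with sunlight first for the F3'H unigenes, and their 2 tea members were lower in all shaded libraries. Unigene28864, the most abundant member, had 75.3, 177 and 157 FPKM in the shaded libraries (numbers 1 to 3), against 366, 434 and 419 FPKM in Y1, Y2 and Y3. The highest shaded library was thus below the lowest sunlit one, and the means were 136 ± 53.8 FPKM in Y+S and 406 ± 35.8 FPKM in Y (SD, n = 3 each). Unigene40240 had 56.8, 121 and 93.6 FPKM in the 3 Y+S libraries, against 177, 285 and 270 FPKM in the 3 Y libraries. Its groups did not overlap either, with means of 90.3 ± 32 FPKM in Y+S and 244 ± 58.3 FPKM in Y. Y+S1 was the lowest library and Y2 the highest for both unigenes. Both hold pieces of a sequence like the same tea protein, and parts and copies of 1 gene cannot be told apart here, so that they are not counted as independent evidence. Their FPKM ratio, Unigene28864 to Unigene40240, was 1.32, 1.46 and 1.68 in Y+S and 2.07, 1.52 and 1.55 in Y, and these ranges overlapped.

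**Figure D1:**
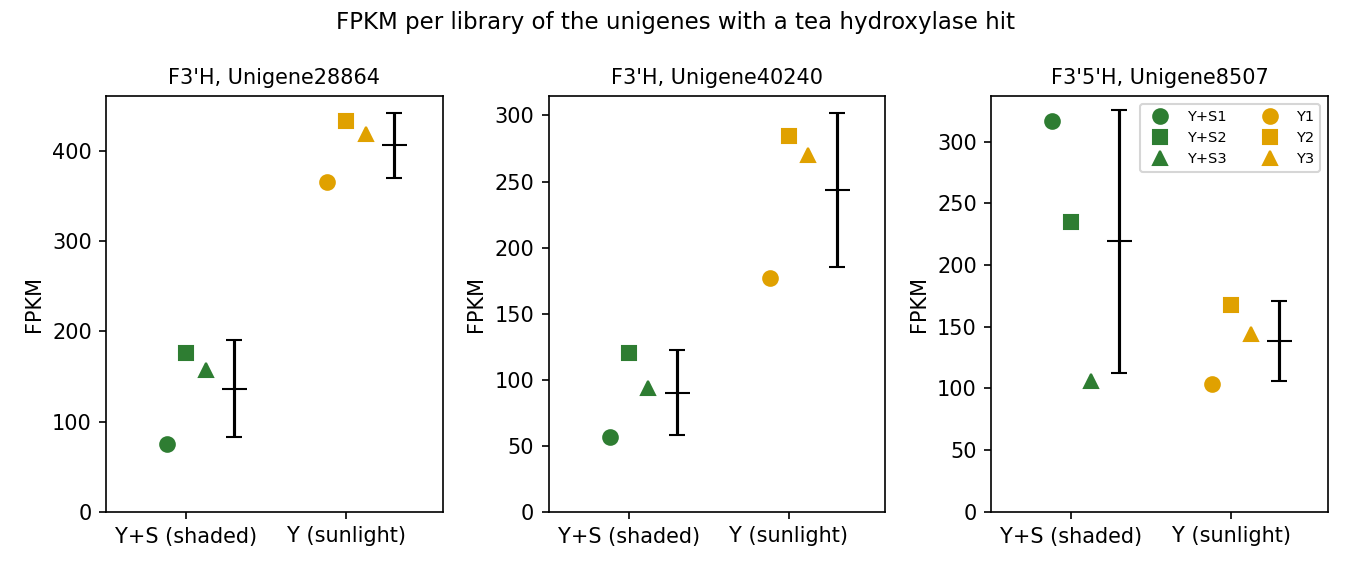
FPKM (vertical axes, each from 0) of the 3 unigenes with a tea hydroxylase hit in each Y+S library (green, left) and Y library (yellow, right). Symbols mark the library number and black bars the mean ± SD of 3 libraries. Both F3'H unigenes lie below the sunlit libraries in all 3 shaded ones, while for the F3'5'H unigene the shaded libraries spread from 106 to 317 FPKM and overlap with the sunlit ones at 103 to 167 FPKM.

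Over the 4 libraries, edgeR gave Unigene28864 a log2 fold change (Y+S over Y) of -1.85 (SE 0.38, unadjusted p = 0.00139) and Unigene40240 one of -1.73 (SE 0.34, unadjusted p = 0.00118). Adjusted by Benjamini-Hochberg over the 64281 unigenes tested, these became 0.151 and 0.147, above the threshold of 0.05. Only 34 unigenes of the whole table were called in this fit (0.0529%, 29 higher and 5 lower in Y+S), and none of the 14 members that passed its filter on low counts was among them. An unadjusted p below 0.05 was reached by 4 of these 14 members and by 14.9% of all unigenes tested. DESeq2, run on the same 4 libraries, called 2.90% of the 35599 unigenes it tested and 4 of the 12 members among them, Unigene28864 and Unigene40240 as lower in Y+S (adjusted p = 8.5e-05 and 0.000171, with 1.59% of all unigenes called lower) and Unigene22707 and Unigene39917 as higher (1.31% called higher). At the stricter threshold of the study (0.001 for the adjusted p, and 1 for the size of the log2 fold change) the first pair was called, with 0.699% of all unigenes. The likelihood ratio test of edgeR, which called 3.35% of all unigenes, called the same 4. Without a filter on low counts edgeR called 4 members, with Unigene4816 in place of Unigene39917, and 0.757% of all unigenes. With all 6 libraries the log2 fold changes were -1.51 (SE 0.50) for Unigene28864 and -1.36 (SE 0.43) for Unigene40240, with adjusted p of 0.556 and 0.542 by edgeR, and no unigene of the table was called (0.0%), against 4782 at an unadjusted p below 0.05 (8.06%, with 3 members) and 592 by DESeq2 (0.989%), no member among them. In CPM scaled by TMM over these 6 libraries, Unigene28864 had 68.2, 139 and 229 in Y+S and 484, 405 and 352 in Y, so that the groups stayed apart under this scaling too. Of all 59300 unigenes tested over the 6 libraries, 7.28% had every Y+S library below every Y library and 6.67% the reverse, 14.0% in all. Between the 2 libraries the study left out, Y+S3 and Y1, the log2 ratio of FPKM + 0.5 was -1.21 for Unigene28864 and -0.92 for Unigene40240, a pair with no replicate.

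The number of members called depended on single shaded libraries. Without Y+S1 the fit of the 4 libraries called 6 members and 5.03% of all unigenes, and without Y+S2 it called 4 members and 9.55% of all unigenes, while leaving out Y2 or Y3 called no member. With 1 shaded library left, the spread in these fits came from the 2 sunlit ones.

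The other F3'H unigenes were much lower than the tea pair and did not share its pattern. Unigene39917 (325 nt), whose closest Swiss-Prot protein is a CYP98, had 8.86, 39.6 and 18.4 FPKM in Y+S, against 10.6, 3.14 and 5.83 FPKM in Y. Y+S2 and Y+S3 lay above all sunlit libraries, and Y+S1 lay within their range. Its log2 fold change was 2.33 over the 4 libraries (SE 0.67, edgeR adjusted p = 0.207, DESeq2 adjusted p = 0.0314) and 1.6 over all 6 (SE 0.72, edgeR adjusted p = 0.621). Unigene45511 (628 nt), closest to angelicin synthase of the CYP71 family, had 11.8, 7.81 and 8.25 FPKM in Y+S and 5.48, 11.4 and 13.5 FPKM in Y, with the shaded values inside the sunlit range. The remaining 4 F3'H unigenes, Unigene49274, Unigene43392, Unigene43567 and Unigene63918, had at most 4.33 FPKM in any library and did not pass the filter of either fit. Unigene43567, closest to the CYP719 enzyme cheilanthifoline synthase of alkaloid synthesis in California poppy, had 2, 6 and 23 counts in Y+S and none in Y, and with so few counts no fold is given.

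F3'5'H was represented mainly by Unigene8507, which made up 81.8% to 88.2% of the summed FPKM of the 11 F3'5'H unigenes in each library. It had 317, 235 and 106 FPKM in the shaded libraries (numbers 1 to 3), against 103, 167 and 144 FPKM in Y1, Y2 and Y3. Y+S1 and Y+S2 lay above every sunlit library and Y+S3 lay among them, so that the means of 219 ± 106 FPKM in Y+S and 138 ± 32.4 FPKM in Y (SD, n = 3 each) overlapped in spread. The log2 fold change was 0.79 over the 4 libraries (SE 0.34, edgeR adjusted p = 0.340) and 0.60 over all 6 (SE 0.43, adjusted p = 0.717). Neither passed the threshold, and neither did DESeq2 over the same libraries. It did so by edgeR without Y+S2 (log2 fold change 1.05, adjusted p = 0.0170). Between Y+S3 and Y1 alone the log2 ratio of FPKM + 0.5 was 0.034.

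Because Unigene8507 is so long, its values were also set against the other long unigenes of each library. How much of its 4961 nt belongs to F3'5'H was not examined, as the sequences were not used. Its counts and FPKM are those of the whole unigene and may include other sequence. Per 1000 counts of unigenes of 3000 nt or more it had 17.0, 12.4 and 11 counts in Y+S and 9.25, 12.3 and 9.40 counts in Y. The means were 13.4 ± 3.12 in Y+S and 10.3 ± 1.69 in Y (SD, n = 3 each), a log2 ratio of 0.38 and smaller than on the FPKM scale, and the groups overlapped. The share of counts in long unigenes thus moves with the values of Unigene8507 in Y+S3 and Y1, and its part in them was not tested beyond this scaling.

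The other F3'5'H unigenes ranged from well expressed to barely detected. Unigene33288 (1179 nt), with a strawberry flavonoid 3'-monooxygenase-like protein as its best hit, had 12.4, 7.33 and 9.55 FPKM in Y+S and 9.51, 11.4 and 10.9 FPKM in Y. Its groups overlapped fully, with a log2 fold change of -0.20 over the 4 libraries (SE 0.35, edgeR adjusted p = 0.839). CL9176.Contig1 (1275 nt), which has the same best hit, had 3.56, 4.25 and 2.03 FPKM in Y+S and 0.628, 3.86 and 4.23 FPKM in Y, and Y1 was the lowest library. The CL12705 cluster matched a grape CYP76C1-like protein, of a family known in Arabidopsis for the oxidation of monoterpene alcohols, though CL12705.Contig3 had a petunia F3'H (CYP75B2) as its best Swiss-Prot hit. Its CL12705.Contig4 had 14.0, 5.54 and 1.14 FPKM in Y+S and 1.70, 8.35 and 7.35 FPKM in Y, and its CL12705.Contig3 had 3.23, 2.58 and 0.983 FPKM in Y+S and 1.17, 2.08 and 2.93 FPKM in Y. In both contigs Y+S3 and Y1, the libraries poor in long unigenes, were the lowest of their groups.

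Unigene45654 (1399 nt), a best match to petunia F3'5'H (CYP75A1) in Swiss-Prot, had 1.68, 4.87 and 1.15 FPKM in Y+S and 0.973, 1.66 and 0.784 FPKM in Y. Only Y+S2 stood clearly above the sunlit libraries, and the log2 fold change was 1.29 over the 4 libraries (SE 0.58, edgeR adjusted p = 0.353). The short Unigene4816 (382 nt) shares its best grape hit with Unigene45654. It had 12, 23 and 3 counts in Y+S and 4, 0 and 0 counts in Y, with no overlap of Y+S1 and Y+S2 with any sunlit library. It failed the filter of both fits. Unigene32832 (500 nt) had 2.03, 1.90 and 1.61 FPKM in Y+S and 0.641, 1.11 and 1.6 FPKM in Y, on 4 to 19 counts per library. The remaining 3, CL9176.Contig2, CL12705.Contig2 and Unigene25083, had 0 to 14 counts per library. Of these only CL12705.Contig2 was tested, over the 4 libraries, with a log2 fold change of -0.99 (SE 0.52, edgeR adjusted p = 0.420).

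Of the 2 members found by name alone, Unigene22707 (312 nt) is a short piece whose best hits were a grape flavonoid 3'-monooxygenase-like protein and, in Swiss-Prot, CYP81D1. It had 14.5, 59.8 and 32.6 FPKM in Y+S, against 9.24, 5.65 and 6.08 FPKM in Y. All shaded libraries lay above all sunlit ones, on 85, 255 and 114 counts in Y+S and 36, 19 and 19 counts in Y. The log2 fold change was 2.55 over the 4 libraries (SE 0.61, edgeR adjusted p = 0.172, DESeq2 adjusted p = 0.00403) and 2.25 over all 6 (SE 0.62, edgeR adjusted p = 0.512). On the TMM scale its groups were also apart, but by little, with 4.15 CPM in Y+S1 and 3.85 CPM in Y1. The galactosyltransferase Unigene1186 had 7.29, 14.4 and 3.02 FPKM in Y+S and 8.50, 8.06 and 10.9 FPKM in Y, and its sunlit values lay inside the shaded range.

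**Figure D2:**
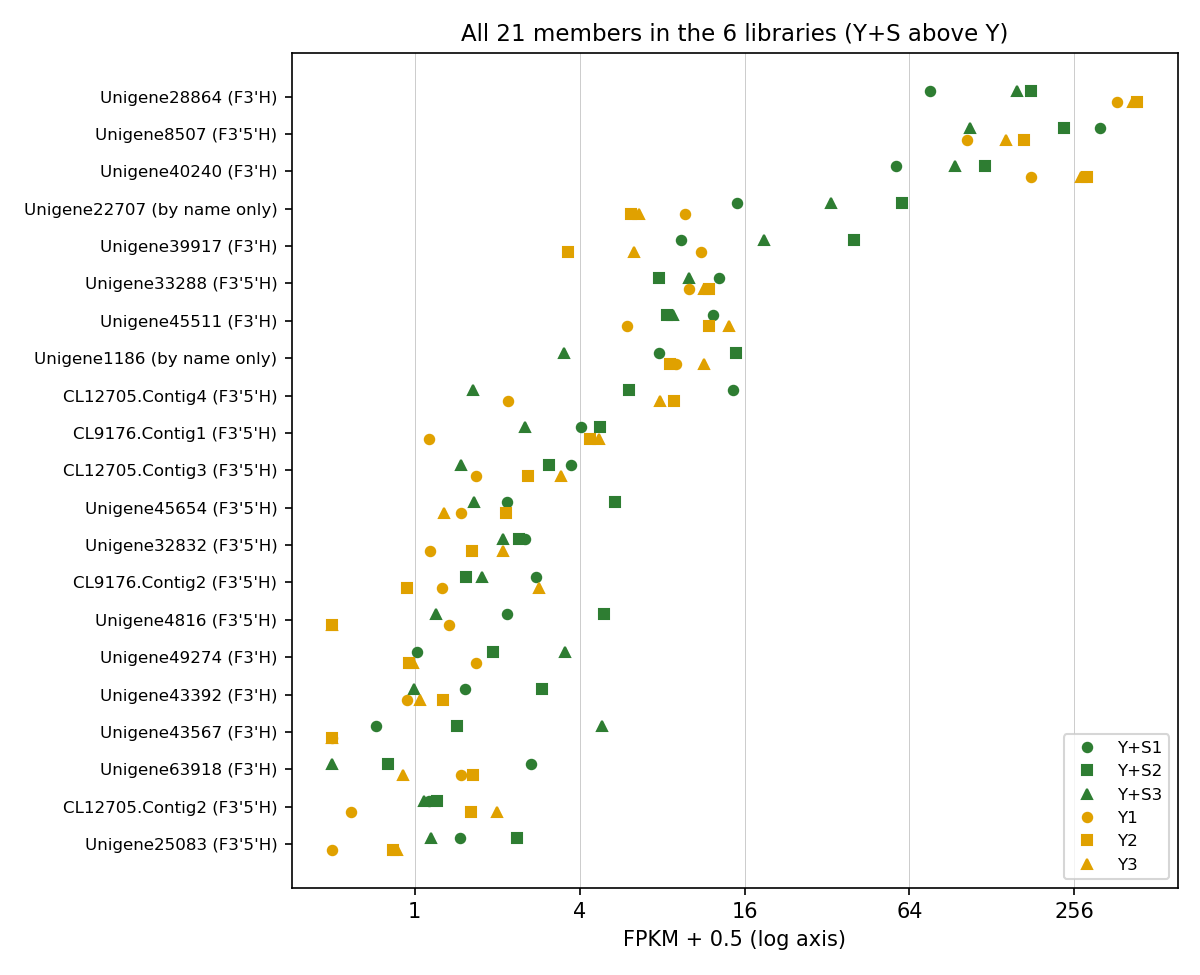
FPKM + 0.5 (log axis) of all 21 members, 1 row each with the KEGG class in parentheses, in the Y+S libraries (green, upper points of a row) and the Y libraries (yellow, lower points). Unigene28864, Unigene8507 and Unigene40240 lie above 50 FPKM in every library, and no other member exceeds 59.8 FPKM.

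**Figure D3:**
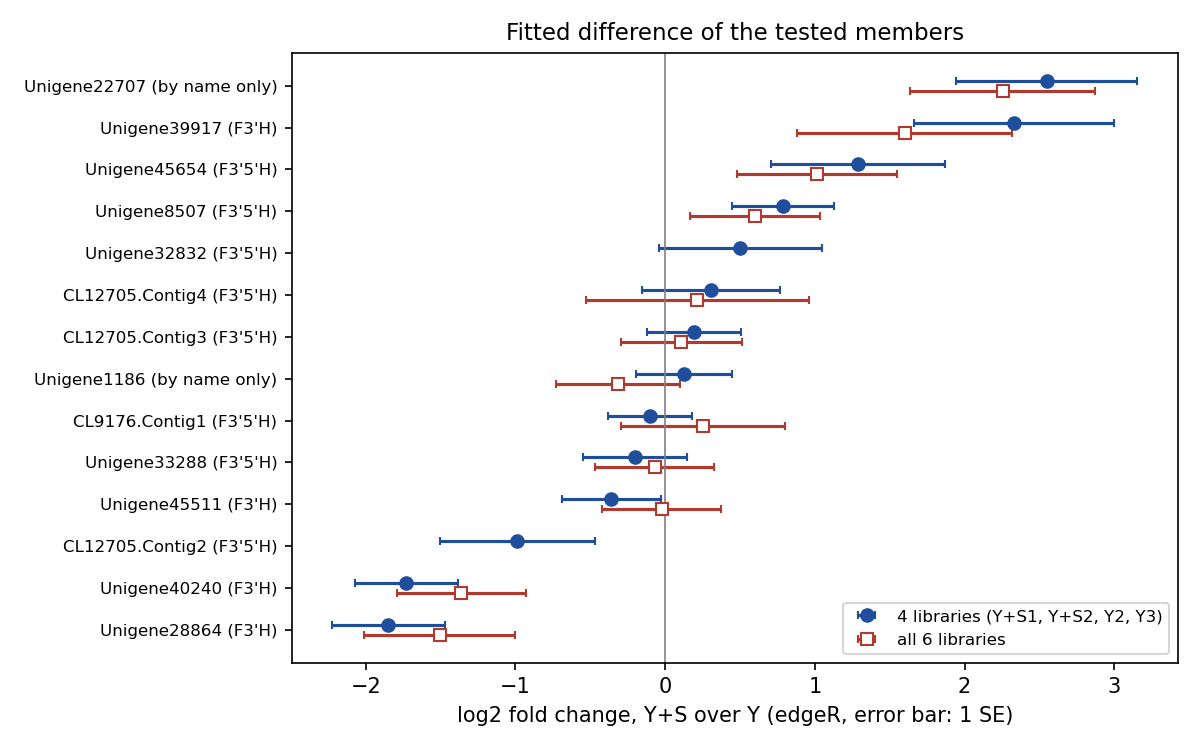
The log2 fold change of Y+S over Y by edgeR (horizontal axis, error bars 1 SE) for the 14 members tested over the 4 libraries (blue circles) and the 12 tested over all 6 (red squares). Unigene28864 and Unigene40240 lie lowest at -1.85 and -1.73 over the 4 libraries, Unigene22707 and Unigene39917 highest at 2.55 and 2.33, and no member passed an adjusted p of 0.05.

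The order of the 3 tea unigenes by FPKM differed between the groups. In sunlight the F3'H unigenes stood above F3'5'H, with 366 to 434 FPKM for Unigene28864, 177 to 285 for Unigene40240 and 103 to 167 for Unigene8507, and these ranges did not overlap. In shade Unigene8507 had the highest mean, and its range of 106 to 317 FPKM overlapped with 75.3 to 177 for Unigene28864 and 56.8 to 121 for Unigene40240. These levels are per unigene length as the authors computed them. The order between genes depends on how completely each transcript was assembled and on how much of each unigene belongs to the enzyme.

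Whether the 2 enzymes moved apart was examined with the FPKM ratio of Unigene8507 to Unigene28864, which does not depend on the library total. It is not free of the share of long unigenes, since Unigene8507 has 4961 nt and Unigene28864 has 989 nt. The ratio was 4.21, 1.33 and 0.672 in the shaded libraries (numbers 1 to 3), against 0.282, 0.386 and 0.343 in Y1, Y2 and Y3. Every shaded library had a higher ratio than every sunlit one, but the shaded libraries differed widely among themselves. The ratio was lowest of its group in Y+S3 and Y1, the libraries with the smallest share of counts in long unigenes. The part of that share in the ratio was not tested. On the log2 scale, with 0.5 added to each FPKM, the mean was 0.64 ± 1.33 in Y+S and -1.58 ± 0.23 in Y (SD, n = 3 each). The difference of 2.21 had p = 0.10 in a two-sided exact permutation test, the smallest that 3 against 3 libraries can give. The study had already listed Unigene28864 as lower in shade, from 4 of these 6 libraries. A ratio with this unigene below the line tends to be higher in shade for that reason, so the p is not independent support. Leaving out 1 library at a time gave differences from 1.5 (without Y+S1) to 2.81 (without Y+S3).

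**Figure D4:**
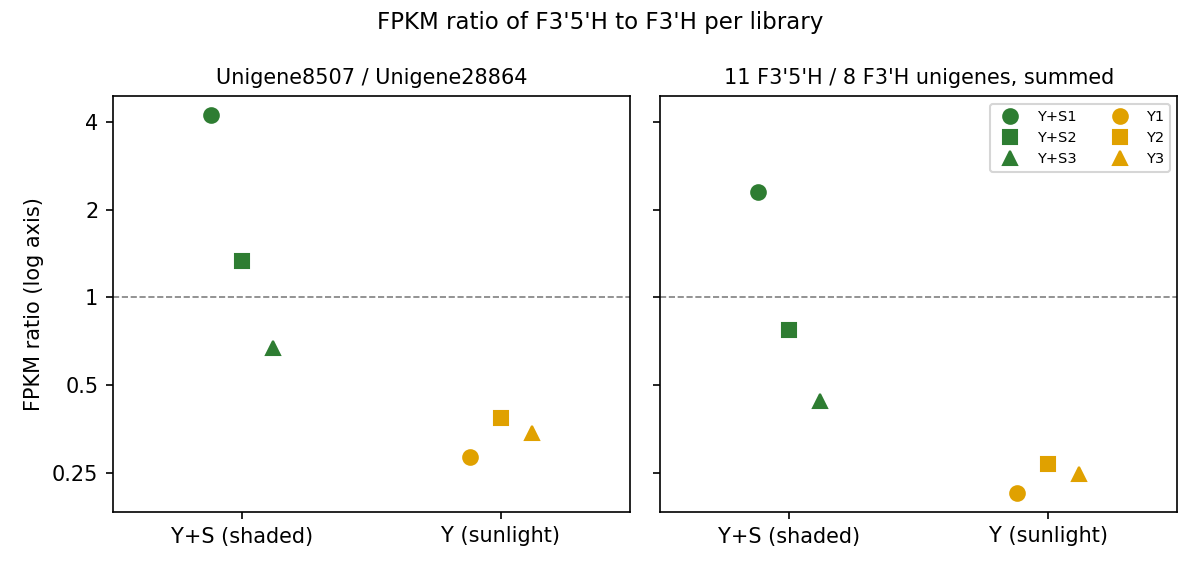
FPKM ratio of F3'5'H to F3'H (log axis) in each Y+S library (green, left) and Y library (yellow, right), for Unigene8507 over Unigene28864 and for the summed members of each KEGG class. Symbols mark the library number and the dashed line a ratio of 1. The F3'H sum includes Unigene28864 and Unigene40240, which may be parts of 1 transcript, so the level of the summed ratio is uncertain. The first ratio lies between 0.672 and 4.21 in Y+S and between 0.282 and 0.386 in Y.

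The sums over the KEGG classes are given as a description without a test. The 8 F3'H unigenes summed to 157, 350 and 285 FPKM in Y+S, against 561, 735 and 710 FPKM in Y, a log2 ratio of the means of -1.34. The 11 F3'5'H unigenes summed to 359, 269 and 125 FPKM in Y+S, against 120, 198 and 176 FPKM in Y, a log2 ratio of the means of 0.61. The F3'H sums did not overlap between the groups and the F3'5'H sums did. Unigene28864 and Unigene40240 supplied 84.3% to 87.9% of the F3'H sum in Y+S and 96.7% to 97.7% in Y. Over the 4 libraries, the median log2 fold change was -1.04 for the 4 F3'H unigenes tested, 0.25 for the 8 F3'5'H unigenes tested and 0.03 for all unigenes tested.

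Among all unigenes with a protein annotation and a mean FPKM of at least 1, the likeness of the pattern over the 6 libraries was ranked for both primer unigenes, as the mean absolute difference of centred log2(FPKM + 0.5) among 47515 unigenes. For Unigene28864 the closest were Unigene33818, an unnamed peach-like protein (0.10), and Unigene44541, a peroxidase 21-like protein (0.14), then Unigene974, Unigene38992 and the F-box/LRR-repeat protein Unigene60628 (up to 0.18). Unigene40240, at 0.15, would stand at the third place in this order. For Unigene8507 the closest were CL6027.Contig3, unnamed, and CL3519.Contig5, a phospholipase D (0.04 each), then the tubby-like F-box protein CL3249.Contig4, the aconitase CL7605.Contig1 and the ABC transporter CL8722.Contig2 (0.06 each). The distance between Unigene28864 and Unigene8507 was 1.14. These values share the depth and composition of the same 6 libraries and carry no test.

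The rest of the flavonoid pathway was read from 11 enzyme lists, which together held 126 unigenes. Of these, 98 were tested over the 4 libraries and edgeR called none, with 24 higher and 7 lower in Y+S at an unadjusted p below 0.05. These were 31.6% of the 98, against 14.9% of all unigenes tested, in lists chosen with earlier results of these data known. Their median log2 fold change was 0.16, against 0.03 for all unigenes tested. DESeq2 tested 86 of them and called 13 (15.1%, 9 higher and 4 lower), against 2.90% of all unigenes. PAL, the entry enzyme of phenylpropanoid synthesis, stood on 1 side, with a positive log2 fold change for all 24 unigenes tested and an unadjusted p below 0.05 for 13. Many of the PAL unigenes are contigs of 1 cluster, CL1403, or short pieces. Parts and copies of 1 gene cannot be told apart here, so that they are not counted as independent evidence. The most abundant PAL unigene, Unigene34746, averaged 58.3 ± 5.99 FPKM in Y+S and 25.5 ± 4.01 FPKM in Y (log2 fold change 1.32, SE 0.26, edgeR adjusted p = 0.141, DESeq2 adjusted p = 0.0116). FLS, which turns the dihydroflavonols that both hydroxylases act on into flavonols, had 20 unigenes in its list, of which 5 are named flavonol synthase. DESeq2 called 4 of these 5 as lower in Y+S (CL8169.Contig1, CL8169.Contig2, Unigene10360 and Unigene34349), and edgeR gave them an adjusted p of 0.106 to 0.150. The first pair shares a cluster, and Unigene10360 and Unigene34349 are pieces of 341 and 352 nt. They are not counted as independent evidence either. CL8169.Contig1 had 51.0, 105 and 37.6 FPKM in Y+S, against 256, 304 and 278 FPKM in Y. The shaded values lay below all sunlit ones, with a log2 fold change of -1.98 over the 4 libraries (SE 0.35, edgeR adjusted p = 0.118, DESeq2 adjusted p = 4.4e-06). The 2 unigenes of the list that DESeq2 called as higher carry other names, CL6306.Contig1 that of protein SRG1 and CL13603.Contig1 that of a predicted protein.

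Apart from PAL, the most abundant unigene of each pathway step had a log2 fold change between -0.83 (CHS) and 0.45 (4CL) over the 4 libraries. Less abundant flavonol synthase unigenes had larger ones, such as -2.33 for Unigene10360, and that of Unigene28864 was -1.85. In other lists too, DESeq2 called less abundant unigenes as higher in Y+S, with larger log2 fold changes. For 4CL this was Unigene21322 (1.496, DESeq2 adjusted p = 0.00706), and for DFR CL10423.Contig2 (1.95, adjusted p = 0.0117). For LDOX it was CL4057.Contig1, named as a predicted protein (2.95, adjusted p = 8.4e-05). The 4 pathway unigenes that DESeq2 called as lower were all in the FLS list. CHS, the first enzyme of flavonoid synthesis, had 1267 ± 384 FPKM in Y+S and 1745 ± 186 FPKM in Y for CL12980.Contig1. F3H, which makes the dihydroflavonol substrate, had 242 ± 67.0 FPKM in Y+S and 308 ± 16.0 FPKM in Y for Unigene39726. The flavonol synthase Unigene28611 had 855 ± 325 FPKM in Y+S and 789 ± 36.2 FPKM in Y. DFR, which reduces dihydroflavonols, had 146 ± 17.4 FPKM in Y+S and 120 ± 17.1 FPKM in Y for CL9907.Contig5, named after a grape dihydroflavonol-4-reductase-like protein. Unigene45768, named as tea dihydroflavonol 4-reductase, had 103, 200 and 109 FPKM in Y+S and 75.1, 131 and 130 FPKM in Y. For the enzymes that release catechins, Unigene8934 (LAR) had 136 ± 71.6 FPKM in Y+S and 169 ± 68.6 FPKM in Y, and CL11956.Contig2 (ANR) had 178 ± 53.7 FPKM in Y+S and 152 ± 18.3 FPKM in Y (SD, n = 3 each throughout). LDOX, which makes anthocyanidins, had 20.2 ± 6.19 FPKM in Y+S and 28.9 ± 12 FPKM in Y for CL4643.Contig2. Some other unigenes of its list went the other way. Of the 7 tested over the 4 libraries, 4 were higher in Y+S at an unadjusted p below 0.05 by edgeR and 0 lower. Such a p was reached by 14.9% of all unigenes tested. CL4643.Contig1 (346 nt), also named anthocyanidin synthase, had 12.6, 12.9 and 11.4 FPKM in Y+S, against 4.17, 2.68 and 5.19 FPKM in Y. The isomerase CHI (Unigene52428, with an unnamed grape protein as its best hit) had 293 ± 71.5 FPKM in Y+S and 308 ± 56.2 FPKM in Y. The early enzymes C4H (CL1270.Contig4) and 4CL (Unigene28088) had 57.3 ± 19.3 and 49.2 ± 12.9 FPKM in Y+S and 55.9 ± 17.4 and 33.3 ± 11.7 FPKM in Y. Unigene28088 is named 4-coumarate-CoA ligase-like 7-like. For the most abundant unigenes of these 10 steps, the edgeR adjusted p over the 4 libraries lay between 0.310 for CL12980.Contig1 and 0.950 for Unigene28611.

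The electron donors of the hydroxylases did not pass the test either. The list held 61 unigenes listed as NADPH-cytochrome P450 reductase, not all of them named so by their protein hit, 9 of cytochrome b5 and 9 of cytochrome b5 reductase. Of these, 52 were tested over the 4 libraries and edgeR called none, with 9 lower and none higher in Y+S at an unadjusted p below 0.05 (17.3%, close to the 14.9% of all unigenes). Of the 9, 5 were cytochrome b5, 1 was cytochrome b5 reductase and 3 were listed as P450 reductase. DESeq2 called 1, the cytochrome b5 unigene Unigene772, as lower (log2 fold change -1.22, adjusted p = 0.0334). The most abundant, Unigene15696, matched the petunia cytochrome b5 DIF-F, which in petunia petals is needed for full F3'5'H activity. It had 261, 511 and 439 FPKM in Y+S, against 673, 343 and 303 FPKM in Y, with the highest value in Y1 and the groups overlapping. The most abundant unigene listed as P450 reductase was CL248.Contig7, whose best protein hit is named a putative cytochrome P450. It had 24.9, 26.0 and 10.1 FPKM in Y+S and 12.6, 18.8 and 23.9 FPKM in Y, which also overlapped.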

How the data were processed

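The data are 6 RNA-seq libraries of tea leaves. The authors made stranded mRNA libraries, filtered the reads and built 1 common assembly with Trinity, TGICL and Phrap. They deposited, per unigene and library, the raw count of uniquely aligned fragments and the FPKM (per kb of unigene, scaled to a library of 1000000 aligned fragments). The aligner and the use of strand are not given in the sources used here. FPKM recomputed from the counts differed by at most 5.0e-05. Of 127253 lines, 1 had been emptied for this work. Columns were matched to libraries with the key deposited beside the table. Codes in the sample descriptions conflict with it: they give the column used for Y+S3 to Y+S1, and the one used for Y1 to Y3. Every statement on these 4 libraries, and which 4 form the smaller fit, therefore depends on the key.

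Unigenes were kept by filterByExpr. Scaling was by TMM, and the main test was edgeR's quasi-likelihood F test (edgeR 4.0.16, R 4.3.3). All unigenes were fitted and p-values adjusted over them by Benjamini-Hochberg, with a threshold of 0.05. The exact permutation test (numpy 2.4.6) used log2 ratios of FPKM with a pseudocount of 0.5. The FPKM ratios listed per library have no pseudocount. Alternatives were DESeq2 1.42.0, its size factors in edgeR, library totals, no filter, the likelihood ratio test, limma 3.58.1 on log2 FPKM, contigs summed per cluster, the stricter threshold of the study, a narrower member list, the replicate block and leaving out each library. Scaling to long unigenes and the pair of Y+S3 and Y1 were chosen later, with the data in view. The programs were tested on simulated data.

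Members and gene lists were chosen with earlier results of these data known. Values in every library are given for members that passed the filter over the 4 libraries with a mean FPKM of at least 1. For other enzymes, the unigene of highest mean FPKM is named, and for likeness the 5 closest. The FLS and cytochrome b5 lists were split by name after the values had been seen. Unigene4816, Unigene43567, CL12705.Contig2, Unigene772, CL8169.Contig1, CL8169.Contig2, Unigene10360, Unigene34349, CL6306.Contig1 and CL13603.Contig1 were also singled out then. So were CL4643.Contig1, CL4057.Contig1, Unigene21322, CL10423.Contig2 and Unigene45768. Same-numbered libraries came from different plants, and their deviations from the group means correlated at -0.37, 0.01 and -0.47. With 3 libraries per group, and numbers that depend on the key, these correlations cannot decide whether the numbers pair them. The main tests used no pairing, and the replicate block was run as an alternative.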

Additional observations from a re-analysis of the deposited data

How the results depend on the processing

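The number of members called over the 4 libraries was 0 by edgeR (0.0529% of all unigenes called) and 4 by DESeq2 (2.90%). It was 4 without a filter on low counts (0.757% of all unigenes) and 4 with the likelihood ratio test (3.35%). It changed when Y+S1 or Y+S2 was left out, which leaves 1 shaded library, and not in step with the number over all unigenes. With DESeq2's size factors in edgeR, library totals, limma on log2 FPKM, contigs summed per cluster or the narrower member list it stayed at 0. At the study's threshold edgeR called 0 members and DESeq2 2. Without the filter, Unigene4816 took the place of Unigene39917 among the 4. Over all 6 libraries it was 0 under every alternative run, the replicate block included. The pathway count was 0 by edgeR (0.0529% of all unigenes called), 13 by DESeq2 (2.90%), 15 without a filter (0.757%) and 22 with the likelihood ratio test (3.35%). When 1 library was left out it ran over 0 to 26, with 26 without Y+S1 (5.03%), 26 without Y+S2 (9.55%) and 0 without Y2 or Y3 (0.0%). Leaving a group with 1 library assumes that it varies like the other group. The ratio of Unigene8507 to Unigene28864 kept its direction throughout (log2 difference 1.5 to 2.81). With the replicate block, an exact sign-flip test over 3 same-numbered pairs, it was 2.21 with p = 0.25, the smallest that test can give. That test reuses libraries from which the study had listed Unigene28864 as lower in shade. No block could be used over the 4 libraries, which share 1 number.

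The log2 fold changes of Unigene28864 (-2.47 to -1.18), Unigene40240 (-2.25 to -1.08), Unigene22707 (1.35 to 3.18), Unigene39917 (1.04 to 2.99) and Unigene8507 (0.29 to 1.05) kept their sign under every alternative over 4 or 6 libraries. Other values changed sign, most of them small in the main analysis, though CL4643.Contig2 had -0.61 there over 6 libraries. CL12705.Contig4 over 6 libraries had 0.22 in the main analysis, -0.029, -0.067 and -0.00136 by limma with a pseudocount of 0.5, 0.1 and 1, and -0.21 with the replicate block. When 1 library was left out, the ranges over 4 libraries were -0.77 to 0.19 for Unigene33288, -0.32 to 0.45 for Unigene1186, -0.67 to 0.87 for CL12705.Contig4, -0.11 to 0.42 for CL12705.Contig3, -0.42 to 0.43 for Unigene28611, -0.28 to 0.49 for Unigene15696, -0.16 to 0.41 for CL11956.Contig2, -0.31 to 0.094 for CL1270.Contig4 and -0.61 to 0.10 for CL4643.Contig2. Over 6 libraries they were -0.34 to 0.23 for Unigene33288, -0.20 to 0.23 for Unigene45511, -0.84 to 0.66 for CL12705.Contig4, -0.15 to 0.55 for CL9176.Contig1, -0.20 to 0.33 for CL12705.Contig3, -0.10 to 0.34 for Unigene28611, -0.61 to 0.59 for Unigene15696, -0.36 to 0.22 for Unigene52428, -1.20 to 0.48 for Unigene8934, -0.027 to 0.15 for CL1270.Contig4, -0.92 to 0.12 for CL4643.Contig2 and -0.048 to 0.26 for CL248.Contig7. The cause was not tested. Without a filter the median log2 fold change of all unigenes over the 6 libraries was 0.12, against 0.04 with it.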
